A study of Mus musculus with 4 samples.

Results

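The nucleoside salvage kinases and equilibrative nucleoside transporters are 10 genes that carry out the uptake and stepwise phosphorylation of nucleosides and of cytarabine (Ara-C), an analogue of deoxycytidine used against leukaemia. They were taken by name from the deposited tables, 10 of 21889 listed genes, and all 10 belonged to the 10066 expressed genes, defined by a mean of at least 1 FPKM (fragments per kilobase of transcript, scaled to the mapped fragments of the library) over the 4 libraries. RNA was sequenced from 4 lines of acute myeloid leukaemia cells. They come from BXH-2, a mouse strain prone to retrovirally induced myeloid leukaemia, with 1 library per line. The groups were B117H, highly resistant to Ara-C with an IC50 near 160 µg/ml, and its sensitive parent B117P, near 150 ng/ml, and likewise B140H, highly resistant with an IC50 near 60 µg/ml, and its sensitive parent B140P, near 110 ng/ml. Each resistant line was derived from its own parent. The labels give exposure to rising Ara-C, and passage in ASM medium without the drug, for all 4 samples, parents included. No line has a replicate, and whether a line is 1 clone is not given in the sources used here. A parent and its derivative are called a lineage, B117 or B140.

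Nucleosides enter cells through the equilibrative transporters, which let them move down their gradient, and are trapped by a first phosphorylation. Deoxycytidine kinase (Dck) carries out that step for deoxycytidine and for Ara-C, the UMP/CMP kinase (Cmpk1) adds the next phosphate, and the triphosphate of Ara-C then blocks DNA synthesis. Loss of Dck activity is a known route to Ara-C resistance in leukaemia cells.

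In both resistant lines Dck fell, and among the other 9 members only Dguok passed a 2-fold rule, in lineage B140. Of all expressed genes 4.62% passed this rule in lineage B117 and 3.94% in lineage B140. Dck had 3.31 FPKM in B117H against 20.1 FPKM in B117P, and 2.44 FPKM in B140H against 17.8 FPKM in B140P. Dguok, the mitochondrial deoxyguanosine kinase, had 13.5 FPKM in B117H against 11.5 FPKM in B117P, and 15.7 FPKM in B140H against 7.10 FPKM in B140P. The transporters and the UMP/CMP kinase stayed within 2-fold of the parental level in both lineages.

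The sequences of the sister genes matter here because the FPKM of related genes can be told apart only where their transcripts differ. Dck and Dguok belong to the same deoxynucleoside kinase family, and the stretch below is the most alike ungapped pair of 60 coding bases between them, with the 15 bases that differ in capitals. The longest identical run between these coding sequences was 11 bases. The sequences are from GENCODE M21 transcripts of GRCm38, chromosome 5 for Dck (coding bases 353 to 412) and chromosome 6 for Dguok (coding bases 395 to 454).
Dck: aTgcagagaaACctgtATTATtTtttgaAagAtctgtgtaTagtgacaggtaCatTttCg
Dguok: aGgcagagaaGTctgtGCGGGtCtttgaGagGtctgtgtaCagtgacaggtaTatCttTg

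Uck1 and Uck2, the uridine-cytidine kinases, were the closest pair among the 8 pairs compared, with 74.1% identical bases over 776 aligned coding bases. The most alike 60 bases are shown with their 5 differing bases in capitals, from chromosome 2 for Uck1 (coding bases 670 to 729) and chromosome 1 for Uck2 (coding bases 646 to 705).
Uck1: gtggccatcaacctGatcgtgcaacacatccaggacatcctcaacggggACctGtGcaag
Uck2: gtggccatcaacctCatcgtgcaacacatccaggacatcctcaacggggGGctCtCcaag
The longest identical run of this pair was 34 bases. Among the other pairs, identity over the aligned coding bases was 62.1% for Dck with Dguok, 58.8% for Dck with Tk2, 66.3% for Slc29a1 with Slc29a2 and 63.1% for Slc29a2 with Slc29a3. Dck, Dguok, Tk2 and Slc29a2 had 0% of their stretches of 50 bases in a GENCODE M21 transcript of any other gene. Uck1 had 24.5% of them in the pseudogenes Umpk-ps and Gm4482. Slc29a1 had 8.21% in Gm17080, which lies on the opposite strand and shares 275 exonic bases with it, and Tk1 had 7.26% in Gm6091 and the antisense gene Afmid, with 83 shared exonic bases. The levels of these 3 genes are less certain for that reason. The shares were 2.98% for Cmpk1, 2.49% for Slc29a3 and 2.16% for Uck2, which shares 150 exonic bases with the antisense gene Gm2453. The authors' counting rules for such reads and for strand are not given in the sources used here.

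The promoters of the 2 members that passed the rule are shown as the sequence context of their starts, and promoter activity was not measured. They are the 250 bases before the start in RefSeq, build GRCm38.p6. Capitals mark the GC box, GGGCGG or CCGCCC on either strand, a sequence bound by Sp1-type factors. Dck lies on the plus strand at chr5:88764763-88765012 and Dguok on the minus strand at chr6:83506970-83507219.
Dck promoter: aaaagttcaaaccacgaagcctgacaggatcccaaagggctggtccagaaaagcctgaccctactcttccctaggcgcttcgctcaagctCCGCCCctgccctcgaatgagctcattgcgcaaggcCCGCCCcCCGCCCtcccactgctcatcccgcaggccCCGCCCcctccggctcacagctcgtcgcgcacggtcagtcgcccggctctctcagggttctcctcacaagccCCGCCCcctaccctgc
Dguok promoter: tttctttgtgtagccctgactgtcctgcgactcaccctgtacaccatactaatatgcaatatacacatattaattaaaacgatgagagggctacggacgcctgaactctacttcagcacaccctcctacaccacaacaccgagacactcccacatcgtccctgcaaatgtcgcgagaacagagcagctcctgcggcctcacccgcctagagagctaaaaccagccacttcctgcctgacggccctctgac
The Dck window held 5 GC boxes and the Dguok window 0. Of 32851 RefSeq promoter windows of this length, 32.7% held at least 1 and 4.09% held 4 or more. All 10 members had an entry, with 18 windows in all, 8 of them of Slc29a1. Counted by window, as the shares of all windows are, 10 of the 18 held a GC box, 4 of these in Slc29a1. A CCAAT box (CCAAT or ATTGG) was in 2 of the 18, beside 33.8% of all windows, and a TATA box (TATAAA or TTTATA) in 0, beside 12.4%. Windows of the same gene lie close together and are not independent. A match to these letters describes the sequence and does not show that a factor binds there.

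The libraries held an estimated 19590000 (B117H), 22260000 (B117P), 24550000 (B140H) and 19150000 (B140P) fragments, from the spacing of low FPKM values in long genes with a single transcript. At these depths 3 fragments on a transcript of 2 kb would read as 0.0611 to 0.0783 FPKM, well below every value of the 10 members. Of 8 leukocyte and myeloid markers, 0 were higher and 1 was lower past 2-fold in B117H, and 0 were higher and 2 were lower in B140H. The leukocyte gene Ptprc was between 50.1 and 89.0 FPKM and Sfpi1, the myeloid factor PU.1, between 76.6 and 111 FPKM. Kit was listed at 0 in B140H and B140P. These lines also had B lymphoid markers, Ebf1 at 23.7 FPKM in B140H and 24.7 FPKM in B140P and Cd79b at 64.2 FPKM in B140H and 44.5 FPKM in B140P, so the label of myeloid leukaemia is only partly borne out there. The 5 B lymphoid markers summed to 104 FPKM in B140H against 76.6 FPKM in B140P, where Cd79a was past the rule, at 16.1 FPKM in B140H against 6.63 FPKM in B140P. In lineage B117 each of the 5 was at or below 1.67 FPKM. The 5 stromal markers summed to 7.70 FPKM in B117H against 1.67 FPKM in B117P, mostly Pdgfrb, and to 0.0288 FPKM in B140H against 0.0298 FPKM in B140P. The 4 erythroid markers summed to 3.85 FPKM in B117H against 6.54 FPKM in B117P, and to 8.69 FPKM in B140H against 2.03 FPKM in B140P. These differences came mostly from Hbb-b1. It had 0 FPKM in B117H against 2.77 FPKM in B117P, and 7.17 FPKM in B140H against 0.000183 FPKM in B140P. The B140P value of Hbb-b1 is far below the 0.0783 FPKM of 3 fragments on 2 kb there, so it is read here as 0. How reads were assigned to this gene was not tested. Hba-a1 had 3.59 FPKM in B117H against 3.15 FPKM in B117P, and 1.28 FPKM in B140H against 1.54 FPKM in B140P. The T cell genes Cd3e and Cd3g were listed at 0 in all 4 libraries. Across lineages levels may have been normalised separately by the authors, so differences between lineages carry that limit. In bulk RNA, fewer cells with a transcript and less of it per cell cannot be told apart.

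**Figure D1:**
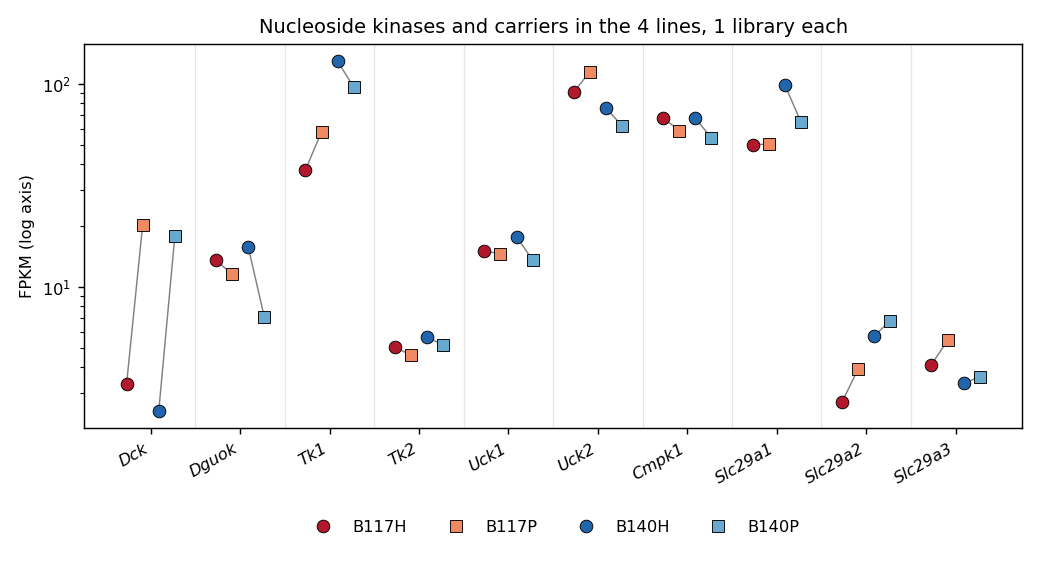
FPKM of the 10 members (log axis) in B117H, B117P, B140H and B140P, 1 library each, with a grey line joining each resistant line (circle) to its parent (square). Dck is the only member with a steep slope in both lineages, at 3.31 and 2.44 FPKM in the resistant lines against 20.1 and 17.8 FPKM in the parents.

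Dck was the member whose level differed most among the 4 lines. Its mm9 position is chromosome 5, bases 89194038 to 89212302, and no other listed gene span overlaps it. Its log2 ratio of FPKM plus a pseudocount of 1 was -2.29 for B117H over B117P and -2.45 for B140H over B140P, values which average -2.37 (SD 0.11, 2 lineages). Both resistant values were below both parental values. In lineage B117, 50 of 10066 expressed genes had a lower ratio, and in lineage B140, 28 had. Of all expressed genes 0.109%, or 11 genes, were at least 2-fold lower in both lineages, and 4 were at or below -2.29 in both, namely Dck and the small RNA genes Snora2b, Snora75 and Snord8.

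The fall of Dck was far outside counting error. B117H kept 16.5% of the parental FPKM of Dck, from an estimated 200 fragments in B117H and 1377 in B117P, with an exact Clopper-Pearson 95% interval of 14.2% to 19.2%. B140H kept 13.8%, from 185 fragments in B140H and 1046 in B140P, with an interval of 11.7% to 16.1%. These intervals cover counting error only, not the spread between cultures. Dck RNA was therefore still detected in both resistant lines, at the 15.5th percentile of expressed genes in B117H and the 13.9th in B140H, against the 63.7th in B117P and the 60.0th in B140P.

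Of the 8 leukocyte and myeloid markers, Mpo alone was lower past 2-fold in both lineages, as Dck was. Mpo, the granule enzyme myeloperoxidase of granulocyte precursors, had 473 FPKM in B117H against 1450 FPKM in B117P, and 0.913 FPKM in B140H against 10.4 FPKM in B140P. The log2 ratios of Mpo were -1.61 for B117H over B117P and -2.58 for B140H over B140P, the second lower than that of Dck. Cd33, a myeloid surface receptor, passed the rule in lineage B140, with 54.8 FPKM in B140H against 120 FPKM in B140P, and had 10.6 FPKM in B117H against 8.58 FPKM in B117P. The other 6 leukocyte and myeloid markers did not pass the rule in either lineage and went in different directions. Cebpa, Sfpi1 and Csf1r had log2 ratios of -0.26, -0.45 and -0.77 in B117H but 0.47, 0.44 and 0.42 in B140H. Itgam and Ptprc had 0.34 and 0.25 in B117H and -0.07 and -0.10 in B140H, and Kit had 0.19 in B117H. The 8 markers had a median of -0.04 in both lineages. Whether a difference in myeloid maturation has a part in the Dck values was not tested.

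Of the nearest expressed genes on either side of Dck, neither passed the 2-fold rule in lineage B140 and Cox18 passed it in lineage B117. Mobkl1a, before Dck, had 3.69 FPKM in B117H against 4.16 FPKM in B117P, and 5.94 FPKM in B140H against 5.97 FPKM in B140P. Cox18, after it and starting at base 90643750, had 8.52 FPKM in B117H against 18.8 FPKM in B117P, past the 2-fold rule with a log2 ratio of -1.05, and 24.3 FPKM in B140H against 21.4 FPKM in B140P. Dck spans bases 89194038 to 89212302, so Cox18 is far from it, whereas Mobkl1a ends close by at base 89187480.

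The expressed genes whose pattern over the 4 lines was most like that of Dck were found by the Euclidean distance between log2(FPKM + 1) values, each centred on its own mean. The nearest was Ifitm1, an interferon-inducible membrane protein, at a distance of 0.87. It had 2.11 FPKM in B117H against 22.7 FPKM in B117P, and 4.78 FPKM in B140H against 18.1 FPKM in B140P. Serpinb6b, a serine protease inhibitor, followed at 1.16, and Psph, an enzyme of serine synthesis, at 1.29. Dab2ip and LOC547349 were at 1.32 and 1.36. Of these 5 genes Ifitm1 and LOC547349 were, like Dck, past 2-fold lower in B117H and in B140H, and LOC547349 had log2 ratios of -1.50 in B117H and -1.40 in B140H.

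Dguok phosphorylates purine deoxynucleosides, mainly deoxyguanosine, in mitochondria. The ratio on the log2 scale was 0.21 for B117H over B117P and 1.04 for B140H over B140P. B140H had 221% of the B140P level, with a counting interval of 184% to 269% from 427 fragments in B140H and 150 in B140P, and B117H had 117.1% of the B117P level, with an interval of 98.9% to 138%. In lineage B140, 203 of 10066 expressed genes had a higher ratio. All expressed genes together had a median of 0.11 in that lineage, and relative to it Dguok was at 0.93, inside the 2-fold rule, so its call depends on the scaling. The genes most like Dguok over the 4 lines were Slc9a7, a sodium-proton exchanger, Ube2d3, a ubiquitin-conjugating enzyme, Ppa2, the mitochondrial inorganic pyrophosphatase, Stx11, a syntaxin, and Ogfod2, at distances of 0.13 to 0.16.

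The order of the deoxynucleoside kinases changed in both resistant lines through the fall of Dck. In the resistant lines Dguok was above Dck, by 4.07-fold in B117H and 6.43-fold in B140H. The second value also holds the higher Dguok level of B140H. In the parents Dck was above Dguok, by 1.75-fold in B117P and 2.50-fold in B140P. Tk2 was likewise 1.52-fold above Dck in B117H and 2.31-fold above it in B140H, against 0.229 and 0.290 of the Dck level in B117P and B140P. Dck made up 15.2% of the summed FPKM of Dck, Dguok and Tk2 in B117H against 55.5% in B117P, and 10.3% in B140H against 59.2% in B140P. Tk1 was above Dck in every line. With Tk1 added to the sum, Dck made up 5.58% in B117H against 21.3% in B117P, and 1.60% in B140H against 14.1% in B140P. FPKM is per transcript length, which allows such comparisons between genes, although it says nothing of the amount of enzyme. Among all 10 members ordered by FPKM, Dck was in place 9 in B117H and place 5 in B117P, and in place 10 in B140H and place 5 in B140P.

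Tk1, the cytosolic thymidine kinase made in S phase, moved in opposite directions in the lineages without passing the 2-fold rule in either. It had 37.5 FPKM in B117H against 58.0 FPKM in B117P, and 129 FPKM in B140H against 96.2 FPKM in B140P. B117H had 64.7% of the B117P level, with a counting interval of 60.0% to 69.8%, and B140H had 134% of the B140P level, with one of 127% to 140%. The files list Tk1 under the span of a whole locus, chromosome 11 from 117676833 to 117701222, which is also the span listed for Afmid, an enzyme of tryptophan breakdown on the opposite strand. Afmid had 1.30 FPKM in B117H against 1.66 FPKM in B117P, and 5.91 FPKM in B140H against 3.53 FPKM in B140P, a small part of the Tk1 level in each line.

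Of 17 S phase genes, all expressed, 0 were higher and 1 was lower past 2-fold in B117H, beside 4.62% of all expressed genes past it either way, with a median log2 ratio of 0.20 against -0.03 for all expressed genes. In B140H 1 was higher and 0 were lower, beside 3.94% of all expressed genes, with a median of 0.35 against 0.11. A count of 1 in 17 is near the share of all genes and is no result about the list. The gene past the rule was Ccne1 both times, the cyclin of the G1 to S transition, at 5.33 FPKM in B117H against 13.9 FPKM in B117P and at 30.5 FPKM in B140H against 12.3 FPKM in B140P. Whether cell cycle differences have a part in the Tk1 values was not tested.

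Tk2, the mitochondrial kinase of thymidine and deoxycytidine, was the least variable member. It had 5.04 FPKM in B117H against 4.59 FPKM in B117P, and 5.65 FPKM in B140H against 5.15 FPKM in B140P. Its ratio was 0.11 in both lineages, and both counting intervals included the parental level. The highest of its 4 values was 1.23 times the lowest, and 7.15% of expressed genes had a smaller log2 range over the lines. For Dck the highest value was 8.22 times the lowest, with 94.3% of expressed genes having a smaller range.

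**Figure D2:**
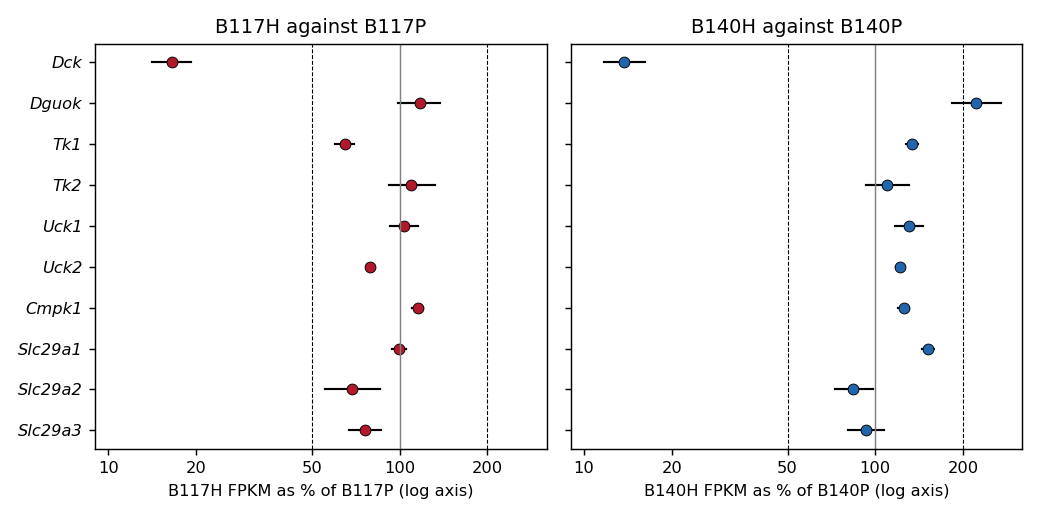
Level in each resistant line as a percentage of its parent (log axis) for the 10 members, with exact 95% counting intervals; the grey line marks the parental level and dashed lines mark 2-fold. Dck is at 16.5% in B117H and 13.8% in B140H, and Dguok at 221% in B140H is the only other point past a dashed line.

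The uridine-cytidine kinases phosphorylate uridine, cytidine and some of their analogues. Uck2, the form often raised in tumours, had 90.8 FPKM in B117H against 114.5 FPKM in B117P, and 75.7 FPKM in B140H against 62.2 FPKM in B140P. Like Tk1, it was lower in B117H, at 79.3% of the parent with a counting interval of 77.1% to 81.5%, and higher in B140H, at 122% with one of 118% to 126%, and neither passed the 2-fold rule. Uck1, the more broadly expressed form, had 15.02 FPKM in B117H against 14.5 FPKM in B117P, and 17.6 FPKM in B140H against 13.5 FPKM in B140P. Uck2 was above Uck1 in every line, by 4.30-fold in B140H to 7.90-fold in B117P. The listed span of Uck1 is shared with Pomt1, an O-mannosyltransferase gene, at 8.19 FPKM in B117H against 10.2 FPKM in B117P and 13.1 FPKM in B140H against 11.4 FPKM in B140P.

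Cmpk1, which converts the monophosphates of cytidine, uridine, deoxycytidine and Ara-C to diphosphates, was abundant and nearly even. It had 67.7 FPKM in B117H against 58.7 FPKM in B117P, and 67.6 FPKM in B140H against 54.0 FPKM in B140P. These were 115% and 125% of the parents, with counting intervals of 110% to 120% and 120% to 131%, and the highest value over the lines was 1.25 times the lowest.

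Slc29a1, the equilibrative transporter ENT1 and the main route of Ara-C into most cells, led the transporters in every line. It had 50.1 FPKM in B117H against 50.3 FPKM in B117P, and 98.5 FPKM in B140H against 64.9 FPKM in B140P. The B117H level was 99.5% of its parent, with a counting interval of 93.9% to 105%. The B140H level was 152% of its parent, with an interval of 145% to 159%, and its log2 ratio of 0.60 stayed under the 2-fold rule.

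The other equilibrative transporters were at low levels. Slc29a2, the ENT2 transporter of nucleosides and nucleobases, had 2.70 FPKM in B117H against 3.93 FPKM in B117P, and 5.72 FPKM in B140H against 6.80 FPKM in B140P. Slc29a3, the ENT3 transporter of lysosomes and mitochondria, had 4.13 FPKM in B117H against 5.43 FPKM in B117P, and 3.34 FPKM in B140H against 3.60 FPKM in B140P. Slc29a2 was below the parent beyond counting error in both lineages, at 68.7% in B117H with an interval of 55.5% to 85.5% and at 84.1% in B140H with one of 72.5% to 97.8%. For Slc29a3 this held in B117H, at 76.0% with an interval of 67.1% to 86.1%, while the interval in B140H, 80.4% to 107%, included the parental level. Slc29a1 made up 88.0% of the summed FPKM of the 3 transporters in B117H against 84.3% in B117P, and 91.6% in B140H against 86.2% in B140P.

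In B117H 0 of 10 members were higher and 1 was lower past 2-fold, while 4.62% of all expressed genes passed the rule in either direction. In B140H 1 of 10 was higher and 1 was lower, beside 3.94% of all expressed genes. These counts rest on Dck in both lineages and on Dguok in lineage B140. Over the 10 members the median was -0.17 in B117H and 0.30 in B140H on the log2 scale, against -0.03 and 0.11 for all expressed genes. Counting error alone was exceeded by 6 of 10 members in B117H and 8 of 10 in B140H. The same share was not worked out for all expressed genes, so these counts are no result about the members. The intervals leave out the scaling between libraries, and no replicate culture shows how far such levels vary by themselves.

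**Figure D3:**
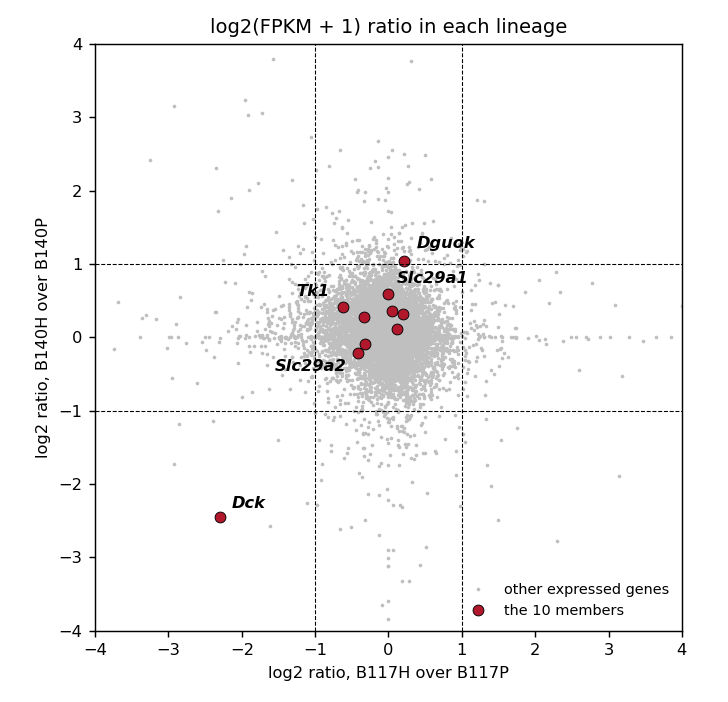
log2 ratio of FPKM + 1 in lineage B117 (x axis) and lineage B140 (y axis) for 10066 expressed genes (grey) and the 10 members (red), with dashed lines at 2-fold; 51 genes lie outside the axes, which end at 4. Dck stands at -2.29 and -2.45, apart from the other 9 members, which lie between -0.61 and 0.21 in lineage B117 and between -0.22 and 1.04 in lineage B140.

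To set both resistant lines against both sensitive ones, limma was run on all 10066 expressed genes, with lineage as its block. The Dck log2 difference was -2.37 (SE 0.23) and had the same sign in 2 of 2 lineages, with a Benjamini-Hochberg adjusted p of 0.13 (unadjusted p = 6.45e-05, place 5 by p among all genes). No member was called, nor was any other gene, 0% of those tested at an adjusted p of 0.05, while 218 genes had an unadjusted p under that value. Dguok had a mean difference of 0.63 with a standard error of 0.29 (limma adjusted p = 0.9995), and every other member had an unadjusted p of at least 0.25. The fit has 1 residual degree of freedom. An exact permutation test of 2 against 2 lines that ignores the lineages cannot go below a two-sided p of 0.333. One that keeps the pairs has fewer arrangements and a higher floor.

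Both resistant lines were above both parents for 3 of the 10 members, Dguok, Uck1 and Cmpk1, and below them for 1, Dck. For Uck1 and Dguok the B117H level was within counting error of B117P. It was 103.7% for Uck1, with an interval of 92.5% to 116%, and 117.1% for Dguok, with one of 98.9% to 138%. This ordering also compares levels across lineages, which may have been normalised separately. Among all expressed genes 10.3% were above and 5.39% below in this way. The values of the other 6 members overlapped between resistant and sensitive lines.

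Between the sensitive parents no member passed the 2-fold rule, beside 16.6% of all expressed genes. At that share a count of 0 in 10 genes is not a result about the members. The largest difference was that of Uck2, with 114.5 FPKM in B117P and 62.2 FPKM in B140P, a log2 ratio of 0.87. Tk1 had the lowest ratio, -0.72, with 58.0 FPKM in B117P and 96.2 FPKM in B140P. Dck was alike, with 20.1 FPKM in B117P and 17.8 FPKM in B140P, 113% with a counting interval of 104% to 123%. Between the resistant lines 1 member of 10 passed the rule, beside 18.9% of all expressed genes, which is no result about the members either. That member was Tk1, with 37.5 FPKM in B117H and 129 FPKM in B140H, a log2 ratio of -1.75. Slc29a1 came next at -0.96, with 50.1 FPKM in B117H and 98.5 FPKM in B140H, and Slc29a2 was at -0.86.

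Genes of the neighbouring steps are set beside the shares of all expressed genes past the rule, 4.62% in B117H and 3.94% in B140H. At those shares a count of 0 in a list this short is not a result about the list. Of 15 other nucleoside and nucleotide kinases 14 were expressed and none passed the 2-fold rule in either lineage, with a median log2 ratio of -0.07 in B117H and one of 0.20 in B140H. Of 11 genes of deoxynucleotide synthesis, all expressed, none passed either, with medians of -0.02 and 0.33. A list of 13 nucleotidases, deaminases and related enzymes was set against Ara-C activation, although some, such as Ada and Pnp, act on purine nucleosides. Of these enzymes 11 were expressed, and in B117H 1 was higher and 1 lower, while in B140H none passed the rule. The fall was of Nt5e, the cell-surface nucleotidase CD73, with 9.58 FPKM in B117H against 26.4 FPKM in B117P. The rise was of Nt5c3l, a cytosolic nucleotidase, with 13.2 FPKM in B117H against 4.42 FPKM in B117P, while it was listed at 0 in B140H and B140P. Cda, cytidine deaminase, which inactivates Ara-C, was listed at 0 in all 4 libraries.

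The concentrative nucleoside transporters, which import nucleosides with sodium, were near 0, with Slc28a1 listed at 0 in all libraries, Slc28a3 at most 0.0795 FPKM and Slc28a2 at 0.0312 FPKM in B140H against 0.694 FPKM in B140P. Slc29a4, the plasma membrane monoamine transporter, was also listed at 0. Of 8 other carriers 3 were expressed and none passed the rule. Abcc4, an exporter of nucleotides and nucleotide analogues, had 22.9 FPKM in B117H against 41.4 FPKM in B117P, and 8.55 FPKM in B140H against 16.0 FPKM in B140P, a log2 ratio of -0.83 both times. Abcc4 was chosen after its values were seen.

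**Figure D4:**
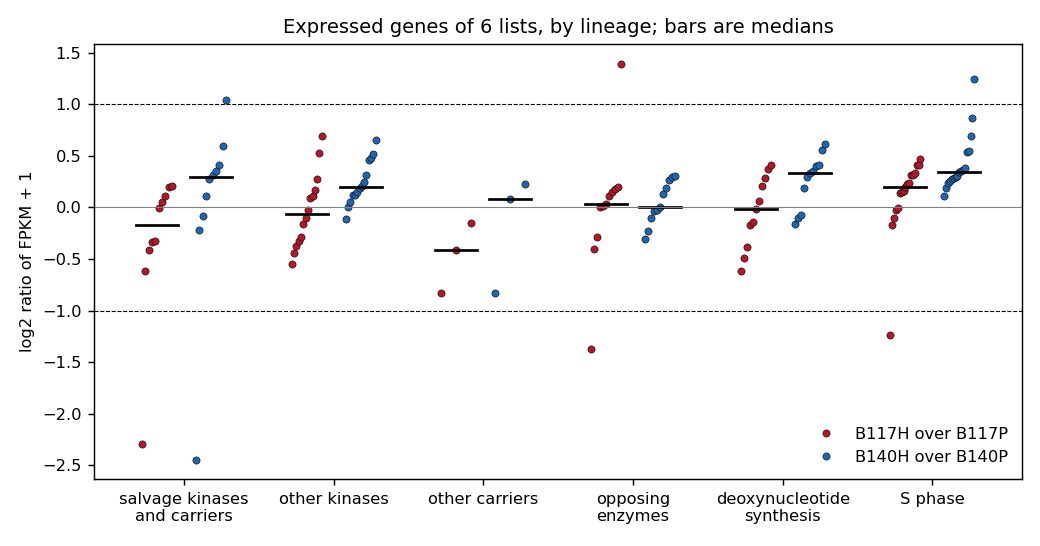
log2 ratio of FPKM + 1 for the expressed genes of 6 lists in lineage B117 (red, left) and lineage B140 (blue, right); points are genes, black bars are medians and dashed lines mark 2-fold. Dck, at -2.29 and -2.45, is the lowest point of the plot in each lineage, and the medians of the lists lie between -0.41 and 0.20 in lineage B117 and between 0.00 and 0.35 in lineage B140.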

How the data were processed

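RNA sequencing of 4 lines was analysed, 1 library per line. The values are FPKM deposited by the authors, made with TopHat2 2.0.4 and Cuffdiff on mm9, per the submitters' processing notes, with no counts. Listed starts count from 0 (6285 spans equal RefSeq lengths that way, 434 the other way), so 1 was added. Genes with a mean of at least 1 FPKM were compared as log2(FPKM + 1), with a 2-fold rule and no test within a lineage. limma 3.58.1 in R 4.3.3 used a trend and the lineage as a block, since the series text pairs each resistant line with its parent. Deviations of B117H and B117P from their group means correlated with r = 0.57 across genes. Depth came from the spacing of low values in 752 genes of at least 3 kb, where 72.5% to 83.7% of 49 to 77 low values lay within 0.15 of whole fragments. The unit came from these values, so this is no independent check. Member fragments used the longest RefSeq-matched GENCODE M21 transcript. All members were named, with up to 4 genes per list past the rule, and 5 similar genes for each member past it. Members and lists were chosen with earlier results of these data known. Steps were tested on simulated data. Python 3.11.15, scipy 1.17.1 and Biopython 1.88 were used.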

Additional observations from a re-analysis of the deposited data

Results flagged for a closer look

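Tk1 and Uck2 had opposite directions in the lineages, each beyond counting error in both. The Tk1 log2 ratio in lineage B140 minus that in lineage B117 was 1.03, from 0.42 for B140H over B140P and -0.61 for B117H over B117P. The Uck2 difference was 0.61, from 0.28 for B140H over B140P and -0.33 for B117H over B117P. Both B140 ratios shrank on rescaling without a change of sign. Centred on the median ratio they were 0.30 for Tk1 and 0.17 for Uck2, and under upper quartile scaling 0.24 and 0.11. With 1 library per line these differences between the lineages were not tested.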

How the results depend on the processing

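Dck stayed past the rule in both lineages under the 4-fold rule, centring on the median ratio, upper quartile scaling, the lower pseudocount of 0.1 and both changes of the filter (none, or a mean of at least 5 FPKM). Its log2 ratio ranged from -2.57 to -2.23 in lineage B117 and from -2.81 to -2.45 in lineage B140. With a 1.5-fold rule 2 members passed in B117H, Dck and Tk1, beside 13.8% of all expressed genes, and 3 in B140H, Dck, Dguok and Slc29a1, beside 13.1%. In B140H 1 member passed under centring, under upper quartile scaling and under a 4-fold rule, since Dguok then fell short, at 0.93 when centred and 0.88 under upper quartile scaling, beside 3.70%, 3.59% and 0.944% of all expressed genes. Between B117H and B140H 2 members passed with a pseudocount of 0.1, Tk1 and Slc29a2, beside 22.4% of all expressed genes. In lineage B140 centring moved the median ratio of all expressed genes by -0.11 and gave 173 higher and 199 lower calls, and upper quartile scaling moved it by -0.13 and gave 159 and 202, beside 233 and 164 as deposited. The sign of the small ratios of Slc29a1 in lineage B117 and Tk2 in lineage B140, and of Tk2 between B117H and B140H, turned under both scalings. Upper quartile scaling also lowered the B140 ratios of Slc29a1, Uck1 and Cmpk1. They were 0.42, 0.19 and 0.15, beside 0.60, 0.36 and 0.32 as deposited. limma called 4 small RNA genes with a minimum mean FPKM of 5, Mir682, Snora64, Snora2b and Snora75, and between 0 and 6 when each library was left out without the block, 6 of them, all small RNA genes, without B140P. Without the replicate block it called 0 genes, with 39 at an unadjusted p under 0.05, and Dck had an adjusted p of 0.9998. Over the 10 alternatives the limma adjusted p of Dck ran from 0.0676 to 1. Depth limits the ratios of Slc29a2, Dguok and Tk2, which rest on 139 to 427 estimated fragments. The ratios of Dck share this limit through the resistant lines, with 200 fragments in B117H and 185 in B140H.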

Other observations

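Dtymk, which adds the second phosphate to thymidine, followed the directions of Tk1 in the lineages without passing the 2-fold rule. It had 113.5 FPKM in B117H against 166.4 FPKM in B117P, and 212 FPKM in B140H against 152 FPKM in B140P. Nme3, a nucleoside diphosphate kinase, was above its parent to a like degree in both lineages, with 10.4 FPKM in B117H against 6.91 FPKM in B117P and 21.4 FPKM in B140H against 14.7 FPKM in B140P, log2 ratios of 0.52 and 0.52. Rrm2, the regulated subunit of ribonucleotide reductase, had 111.4 FPKM in B117H against 83.4 FPKM in B117P, and 173.5 FPKM in B140H against 113.3 FPKM in B140P. These 3 genes were picked with their values in view, and none passed the 2-fold rule.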
